A study of Mus musculus with 8 samples.

Results

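Plasmacytoid dendritic cells (pDC) and conventional dendritic cells (cDC) from spleens of vehicle-treated, leukemia-bearing mice were compared across all genes, using 4 of the 8 libraries of the series: 2 of pDC and 2 of cDC. The libraries were chosen by their labelled cell type and treatment, with no use of measured values. All mice were C57BL/6 with a leukemia, which the series title gives as acute myeloid leukemia (AML), and had received vehicle for 2 days. The vehicle columns carry the name D5W, a dextrose solution in water. Each library came from a pool of 3 to 6 mice, with 2 such pools per group. The other 4 libraries hold the same cell types after 2 days of panobinostat, a histone deacetylase inhibitor, and are used here only to set the same lineage contrast beside that under vehicle. The sources used here do not name the sort gates or the driver of the leukemia, and no library is from a mouse without leukemia. A gene whose protein served in the sort would differ by construction.

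Both cell types arise from bone marrow progenitors that express the cytokine receptor Flt3. The pDC fate depends on the E protein Tcf4, a basic helix-loop-helix factor that binds DNA motifs called E-boxes, and Id2, which lacks a DNA-binding region, pairs with E proteins and blocks them in cDC. Known for sensing nucleic acids in endosomes through Toll-like receptors (TLR) and for releasing type I interferon, pDC resemble antibody-secreting cells in shape. Conventional DC express Zbtb46, sample antigen, and present it to T cells. Type 1 cDC depend on Batf3 and specialise in cross-presentation and sensing of dead cells, and type 2 cDC, which include the Esam+ subset of spleen, present mainly to CD4+ T cells.

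For 5 of the genes that separated the libraries, the sequence just upstream of a listed transcript start is shown first. Tcf4, the regulator that defines pDC, recognises the E-box printed in capitals (CAGGTG, or CACCTG on the other strand). Each sequence is the 250 bases before the transcript start listed by RefSeq (GRCm38.p6), 5′ to 3′ on the gene's strand. Siglech (Entrez 233274, chromosome 7) encodes a lectin of the pDC surface, and its window is chr7:55767934-55768183 on the + strand. Klk1 (Entrez 16612), a kallikrein protease gene, has the window chr7:44225110-44225359 on the + strand. Ccr9, a receptor for the chemokine Ccl25, has chr9:123766961-123767210 on the + strand, and Bst2, which encodes the membrane protein tetherin, has chr8:71537473-71537722 on the - strand. Zbtb46 (Entrez 72147), the cDC factor, has chr2:181424389-181424638 on the - strand, a window inside the gene's annotated span of 181371009 to 181493262.
Siglech: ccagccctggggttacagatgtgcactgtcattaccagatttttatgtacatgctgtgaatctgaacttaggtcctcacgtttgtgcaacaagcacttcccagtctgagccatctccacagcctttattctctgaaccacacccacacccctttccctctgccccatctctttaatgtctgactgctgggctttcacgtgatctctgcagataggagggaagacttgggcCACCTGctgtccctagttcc
Klk1: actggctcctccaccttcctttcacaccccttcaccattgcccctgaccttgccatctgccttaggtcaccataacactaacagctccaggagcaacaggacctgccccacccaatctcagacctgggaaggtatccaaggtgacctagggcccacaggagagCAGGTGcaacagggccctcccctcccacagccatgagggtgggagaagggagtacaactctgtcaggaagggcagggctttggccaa
Ccr9: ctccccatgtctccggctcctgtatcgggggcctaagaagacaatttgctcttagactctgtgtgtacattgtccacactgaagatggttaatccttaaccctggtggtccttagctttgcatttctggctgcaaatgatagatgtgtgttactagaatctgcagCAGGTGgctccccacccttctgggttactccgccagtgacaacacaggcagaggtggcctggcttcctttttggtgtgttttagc
Bst2: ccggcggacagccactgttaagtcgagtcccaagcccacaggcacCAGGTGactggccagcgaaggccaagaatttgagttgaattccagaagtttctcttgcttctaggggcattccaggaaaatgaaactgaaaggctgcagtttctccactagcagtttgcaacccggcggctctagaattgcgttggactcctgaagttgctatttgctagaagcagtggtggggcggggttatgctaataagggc
Zbtb46: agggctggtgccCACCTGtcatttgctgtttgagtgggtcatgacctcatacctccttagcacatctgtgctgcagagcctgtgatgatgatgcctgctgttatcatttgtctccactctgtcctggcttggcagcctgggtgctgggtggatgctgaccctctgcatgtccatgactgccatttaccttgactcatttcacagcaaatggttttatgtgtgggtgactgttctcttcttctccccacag
The 5 genes were chosen because their windows hold the motif, and each held 1 match. Over the whole promoter table, 4620 of 27025 windows of the same length (17.1%) held at least 1. Among genes of the pDC identity list it was 7 of the 24 with a window (30 genes tested). Among genes of pan-cDC identity it was 3 of 18, and among genes of type 1 cDC 1 of 20. These lists were chosen with earlier results of these data known. A match is a description of the letters and no evidence of binding. The window of Zbtb46, a gene higher in cDC, carried the motif too, but it lies inside the gene and not ahead of its whole span.

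Total counts were between 18142443 and 20657429 per vehicle library, with 16109 to 19950 genes holding at least 1 count. The log2 values of replicates correlated with r = 0.963 in pDC and 0.971 in cDC, and those of pDC and cDC libraries with r between 0.756 and 0.795, so the cell type set the libraries apart (the first principal component held 86.6% of the variance). Levels are given below as CPM, counts scaled to the depth of each library, which are not corrected for gene length and are compared only between libraries. The 2 values of a group are given as replicate 1 and replicate 2. Differences are log2 fold changes, pDC minus cDC, ± their standard error (SE). Each group has n = 2 libraries. Each adjusted p comes from the quasi-likelihood F test of edgeR, corrected by the Benjamini-Hochberg method for 13710 genes. A gene is called higher or lower at adjusted p under 0.05. Nothing in the labels says how the mice were shared between the pools of a replicate number, so p-values measure only the spread between these pools.

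Between vehicle pDC and cDC, 4491 genes were called, or 32.8% of those tested: 1967 were higher in pDC (14.3%) and 2524 were lower (18.4%). Counts of list members given below are to be read beside these shares. Large differences leaned towards cDC. More than 4-fold differences were called for 784 genes higher and 1579 lower in pDC, and more than 64-fold differences for 123 and 288. Of the genes tested, 43 had 0 counts in both cDC libraries and 77 had 0 counts in both pDC libraries. Fewer genes were called when a library was left out, and the fall was larger for a cDC than for a pDC library. A group left with 1 library has no spread of its own, so the spread then comes from the pair of the other group. Such counts therefore cannot show on which libraries the calls depend. The same holds for each call given below as lost or kept without a library. Fitting all 8 libraries together gave 1385 calls (714 higher, 671 lower). Of the 240 genes named by rule, 209 were called; all 209 kept their direction in the 12 alternative analyses and 119 were called in every one of them. The fit of all 8 libraries ended 63 of the 209 calls. Among genes described below whose calls withstood the loss of any 1 library, it ended those of Adgre1, Cd80, Csf1r, Ddx58, Gm8221, Id3, Ighg2b, Iglc3, Kit, Mcm6, Nod1, Nr1h3, Tlr1, Tlr2, Tlr6, Tlr13 and Vcam1.

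**Figure D1:**
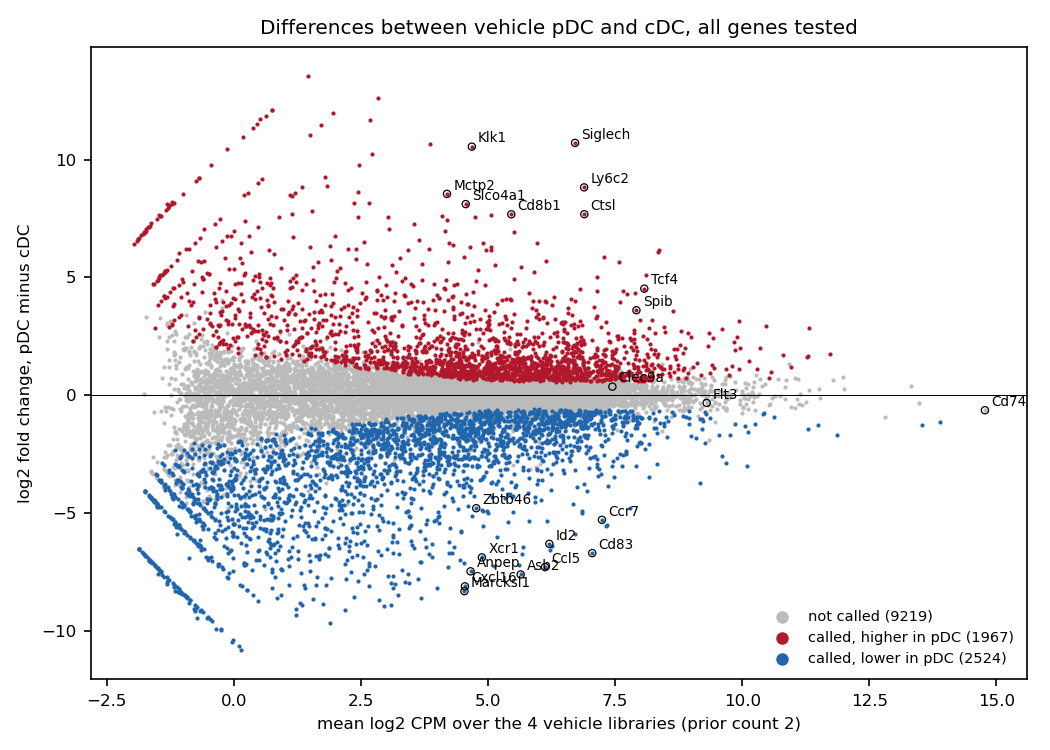
Each point is 1 of the 13710 genes tested, with the mean log2 CPM of the 4 vehicle libraries on the x axis and the log2 fold change (pDC minus cDC) on the y axis. Red points are the 1967 genes called higher in pDC and blue points the 2524 called lower, circles mark a few labelled genes, and the diagonal lines of points at the left are genes with no or very few counts in one cell type, whose fold changes depend on the prior count.

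The lineage markers followed the labels. Siglech was at 4234 and 4458 CPM in pDC and at 3.52 and 1.66 CPM in cDC, a log2 fold change of 10.71 ± 0.52 (adjusted p = 0.000806). Tcf4 was at 1473 and 1119 CPM in pDC and at 53.8 and 59.0 CPM in cDC (4.52 ± 0.25, adjusted p = 0.000889). Zbtb46 was at 2.47 and 8.70 CPM in pDC and at 148 and 163 CPM in cDC (-4.80 ± 0.62, adjusted p = 0.00581). For none of these 3 did the cell types overlap, and each library carried the marker of its label. With 2 libraries per group, such lack of overlap is common and does not by itself set a gene apart. Of 13710 genes tested, both pDC libraries lay above both cDC libraries in 4724 (34.5%) and below them in 4988 (36.4%). In bulk libraries such as these, fewer cells of a type and less RNA per cell cannot be told apart.

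All 30 tested genes of the pDC identity list were higher in pDC. Their median log2 fold change was 6.18, against 0.00174 for all genes tested. With all 8 libraries in one fit, 29 were called higher. The list was chosen with earlier results of these data known, so its counts are no independent support. Among its regulators, Spib, an Ets family factor of pDC and B cells, was at 835 and 851 CPM in pDC and at 72.7 and 65.9 CPM in cDC (3.6 ± 0.19, adjusted p = 0.000889). Runx2, a Runt family factor needed for pDC to leave the bone marrow, was at 316 and 245 CPM in pDC and at 20.4 and 14.4 CPM in cDC (4.01 ± 0.28, adjusted p = 0.00133). Neither overlapped between the types, and the replicates of a type lay close together. On the surface, Bst2 was at 1338 and 1880 CPM in pDC and at 44.3 and 50.8 CPM in cDC (5.08 ± 0.28, adjusted p = 0.000889), and Ccr9 was at 1245 and 1154 CPM in pDC and at 17.5 and 23.6 CPM in cDC (5.87 ± 0.27, adjusted p = 0.000806). Ly6d, a surface protein first known from lymphocytes, differed more between libraries of a type, with 2270 and 3816 CPM in pDC and 18.3 and 71.1 CPM in cDC (6.09 ± 0.81, adjusted p = 0.00633). Cox6a2, a subunit of cytochrome c oxidase otherwise known from muscle, was near 0 in cDC: it was at 518 and 536 CPM in pDC and at 0.453 and 0.196 CPM in cDC (10.64 ± 0.39, adjusted p = 0.000806).

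Called differences without overlap of the groups were ranked over all genes whose log2 CPM, averaged over the 4 libraries, reached 4. A gene near 0 in one cell type can miss this cutoff even when it is abundant in the other. Cox6a2 and Dntt, both near 0 in cDC, are therefore not in the ranking, although their differences exceed that of Klk1. Within the ranking, the largest differences towards pDC included proteases, surface proteins and a transporter. Klk1 was at 821 and 1130 CPM in pDC and at 0.352 and 0.929 CPM in cDC, a log2 fold change of 10.55 ± 0.54 (adjusted p = 0.00085). Ctsl, which encodes the lysosomal protease cathepsin L, was at 1414 and 1999 CPM in pDC and at 7.95 and 8.66 CPM in cDC (7.68 ± 0.32, adjusted p = 0.000806). Ly6c2, a surface marker shared with monocytes, was at 1745 and 3622 CPM in pDC and at 3.67 and 8.17 CPM in cDC (8.82 ± 0.70, adjusted p = 0.00163). Cd8b1, the beta chain of the CD8 co-receptor, was at 389 and 903 CPM in pDC and at 3.07 and 3.23 CPM in cDC (7.68 ± 0.56, adjusted p = 0.00143). Also in the ranking were Mctp2 (8.55), the organic anion transporter gene Slco4a1 (8.11), the lectin gene Cd209d (7.67) and the adaptor gene Sla2 (7.62). So were Upb1 (7.58), Paqr5 (7.42) and Cdh1, which encodes E-cadherin (6.99). All were called without overlap of the groups.

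Of the 22 tested genes of pan-cDC identity, 16 were lower in pDC and 3 were higher, with a median of -3.15. Relb, a subunit of NF-kappaB that DC development uses, was at 23.9 and 36.4 CPM in pDC and at 546 and 471 CPM in cDC (-4.08 ± 0.29, adjusted p = 0.00137). Flt3, the receptor that both types share, was at 559 and 565 CPM in pDC and at 729 and 684 CPM in cDC, a difference that did not pass the test (-0.33 ± 0.17, adjusted p = 0.209). Itgax, which encodes CD11c, was present in both types, at 231 and 280 CPM in pDC and at 609 and 487 CPM in cDC (-1.10 ± 0.22, adjusted p = 0.0179). The 3 members higher in pDC were the adhesion gene Jaml (1.85 ± 0.17, adjusted p = 0.00233), Hmgn3 (1.15) and Haao (1.01). The calls of Itgax, Hmgn3 and Haao were lost without cDC replicate 1, with adjusted p = 0.123, 0.117 and 0.0901, and without cDC replicate 2, with 0.0659, 0.0605 and 0.093; that of Itgax was also lost without pDC replicate 1 (0.0526).

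**Figure D2:**
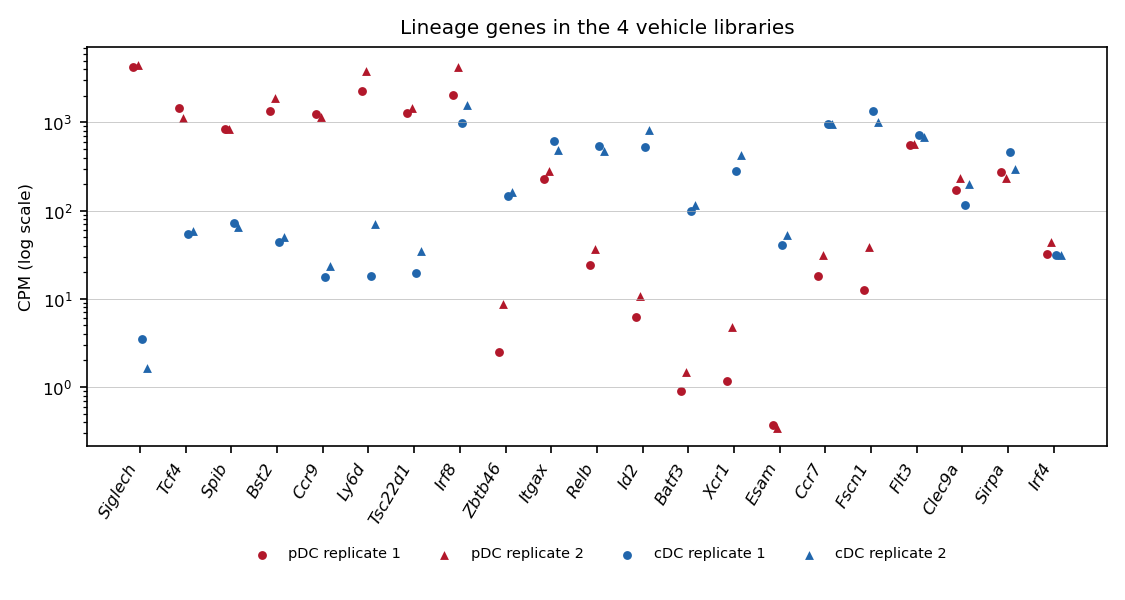
CPM on a log scale (y axis) of 21 lineage genes (x axis) in the 4 vehicle libraries, pDC in red and cDC in blue, replicate 1 as circles and replicate 2 as triangles. Siglech, Tcf4, Spib, Bst2, Ccr9, Ly6d and Tsc22d1 sit far higher in pDC, the genes from Zbtb46 to Fscn1 sit higher in cDC, and Flt3, Clec9a, Sirpa and Irf4 lie close together.

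Genes of type 1 cDC were mostly lower in pDC: of 25 tested, 22 were lower in pDC and 0 were higher, with a median of -5.07. Xcr1, the receptor for the chemokine Xcl1, was at 1.16 and 4.83 CPM in pDC and at 278 and 431 CPM in cDC (-6.89 ± 0.75, adjusted p = 0.00376). Batf3 was at 0.894 and 1.48 CPM in pDC and at 99.4 and 115 CPM in cDC (-6.50 ± 0.32, adjusted p = 0.000806). The hydrolase gene Naaa was lower by the same order (-5.56 ± 0.31), and Wdfy4, needed for cross-presentation, less so, at 83.9 and 56.8 CPM in pDC and 605 and 546 CPM in cDC (-3.03 ± 0.26, adjusted p = 0.00209). Clec9a, the receptor for actin exposed by dead cells, stood against this: it was at 171 and 233 CPM in pDC and at 116 and 199 CPM in cDC, so the groups overlapped (0.36 ± 0.32, adjusted p = 0.437).

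The list of type 2 cDC split: of 26 tested genes, 12 were lower in pDC and 5 were higher, with a median of -1.02. Esam, an adhesion molecule of the Notch-dependent spleen subset, was at 0.368 and 0.341 CPM in pDC and at 40.3 and 53.5 CPM in cDC (-7.02 ± 0.33, adjusted p = 0.000806), and Dtx1, a target of Notch, was lower as well (-6.22 ± 0.73, adjusted p = 0.00462). The lectin gene Clec4a4 was at 0 and 0.341 CPM in pDC and at 98.2 and 91.9 CPM in cDC (-9.12 ± 0.71, adjusted p = 0.00156). Csf1r, the receptor for the macrophage growth factor, was at 11.3 and 9.15 CPM in pDC and at 221 and 152 CPM in cDC (-4.19 ± 0.28, adjusted p = 0.00124). On the other side, Cd4 was at 720 and 836 CPM in pDC and at 114 and 100 CPM in cDC (2.86 ± 0.21, adjusted p = 0.00141), and the lectin genes Cd209a (2.90 ± 0.31) and Clec12a (2.41 ± 0.32) were higher in pDC too. Sirpa, the usual surface marker of type 2 cDC, did not pass the test (-0.61 ± 0.27, adjusted p = 0.151), nor did Irf4 (0.28 ± 0.22, adjusted p = 0.377). Fitting all 8 libraries left 5 higher and 6 lower. Since the cDC libraries hold both subsets, these values are averages over them.

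Of 22 tested genes of the mature, migratory state of DC, 19 were lower in pDC and 1 was higher, with a median of -5.12 (11 lower and 1 higher with all 8 libraries fitted together). Ccr7, the receptor that leads DC to lymph nodes, was at 17.9 and 31.0 CPM in pDC and at 954 and 972 CPM in cDC (-5.30 ± 0.35, adjusted p = 0.00124). Fscn1, which bundles actin in dendrites, was at 12.7 and 38.4 CPM in pDC and at 1351 and 1017 CPM in cDC (-5.54 ± 0.64, adjusted p = 0.00443). Both were abundant in each cDC library and low in each pDC library. Cd200, which restrains myeloid cells, was the 1 member higher in pDC (1.14 ± 0.20, adjusted p = 0.0135), a call lost without cDC replicate 1 (adjusted p = 0.0856) or cDC replicate 2 (0.0898).

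Among E proteins, Id proteins and their partners, 4 of 13 tested were higher in pDC and 3 were lower. Id2 was at 6.21 and 10.7 CPM in pDC and at 531 and 816 CPM in cDC (-6.32 ± 0.43, adjusted p = 0.00133), opposite to Tcf4. Id3, another inhibitor of E proteins, went the other way, at 41.1 and 24.4 CPM in pDC and 5.33 and 5.53 CPM in cDC (2.59 ± 0.33, adjusted p = 0.00575), and the E protein gene Tcf12 was higher in pDC as well (2.35 ± 0.28, adjusted p = 0.00466). Cbfa2t3, a corepressor that binds E proteins, was lower in pDC at 185 and 138 CPM against 373 and 304 CPM in cDC (-1.07 ± 0.23, adjusted p = 0.0231), and so was Lyl1 (-0.84 ± 0.19). Both calls were lost without pDC replicate 2 (adjusted p = 0.0596 and 0.0665), cDC replicate 1 (0.135 and 0.166) or cDC replicate 2 (0.0686 and 0.169). Without any 1 of those 3 libraries, 3 members were higher and 1 was lower.

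Of 53 tested lineage transcription factors, 11 were higher in pDC (20.8%, beside 14.3% of all genes) and 24 were lower (45.3%, beside 18.4%), with a median of -0.71. Irf7, the master regulator of type I interferon genes, was at 867 and 1446 CPM in pDC and at 159 and 193 CPM in cDC (2.71 ± 0.32, adjusted p = 0.00466). Irf8, used by pDC and type 1 cDC alike, was at 2066 and 4256 CPM in pDC and at 989 and 1577 CPM in cDC; the groups did not overlap, but the difference did not pass the test (1.30 ± 0.43, adjusted p = 0.0741). Tsc22d1, a leucine zipper factor, was at 1294 and 1447 CPM in pDC and at 19.7 and 35.0 CPM in cDC (5.65 ± 0.38, adjusted p = 0.00125). Bcl11a, a zinc finger factor upstream of the pDC program that was added here after its values were seen, was higher at 642 and 559 CPM against 199 and 158 CPM (1.75 ± 0.21, adjusted p = 0.00504). Zeb2, which represses Id2, was higher in pDC (1.61 ± 0.39, adjusted p = 0.031), but not called without pDC replicate 1 (0.0774), pDC replicate 2 (0.0533) or cDC replicate 2 (0.0753). Spi1, which encodes the myeloid factor PU.1 and was also added after its values were seen, was at 3.31 and 34.0 CPM in pDC and at 346 and 464 CPM in cDC (-4.44 ± 1.08, adjusted p = 0.0318), with the call lost without cDC replicate 1 (0.0643) or cDC replicate 2 (0.0694). The list's counts fell to 8 higher and 13 lower without cDC replicate 1 and to 7 and 11 without cDC replicate 2.

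Receptors for cytokines showed opposite differences for the 2 classes of interferon. Ifnar1 was at 499 and 487 CPM in pDC and at 124 and 113 CPM in cDC (2.05 ± 0.18, adjusted p = 0.00207), and Ifnar2 was at 455 and 615 CPM in pDC and at 107 and 101 CPM in cDC (2.36 ± 0.23, adjusted p = 0.00274); together they form the receptor for type I interferon. Ifngr1, the ligand-binding chain of the interferon gamma receptor, was at 80.7 and 92.4 CPM in pDC and at 813 and 1120 CPM in cDC (-3.48 ± 0.26, adjusted p = 0.00144). Its partner Ifngr2, added after its values were seen, was lower as well (-1.0 ± 0.21, adjusted p = 0.0202), with the call lost without cDC replicate 1 (0.105) or cDC replicate 2 (0.12). Among the other receptors, Csf2rb2, a beta chain of the IL-3 receptor, was higher in pDC (2.76 ± 0.36, adjusted p = 0.0062). Il7r, the receptor chain for the lymphoid cytokine IL-7 (also added after its values were seen), was at 281 and 290 CPM in pDC and 23.4 and 17.3 CPM in cDC (3.81 ± 0.23, adjusted p = 0.000997). Csf2ra, the GM-CSF-binding chain (-2.64 ± 0.19, adjusted p = 0.00143), and Kit, the receptor for stem cell factor (-3.17 ± 0.25, adjusted p = 0.00156), were lower in pDC. The whole list held 8 higher and 13 lower of 35 tested, and 7 higher and 4 lower with all 8 libraries in one fit.

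For chemokine receptors the list was balanced, but its members differed strongly. Of 19 tested, 5 were higher in pDC (26.3%, beside 14.3% of all genes) and 4 lower (21.1%, beside 18.4%). Ccr2, which guides cells out of the bone marrow, was at 416 and 397 CPM in pDC and at 59.4 and 49.5 CPM in cDC (2.90 ± 0.19, adjusted p = 0.00125). Ccrl2, a non-signalling chemerin receptor, was lower in pDC along with Ccr7 (-4.18 ± 0.33, adjusted p = 0.00163). Among adhesion molecules, Cd44, a receptor for hyaluronan, was higher in pDC at 776 and 693 CPM against 207 and 253 CPM (1.67 ± 0.20, adjusted p = 0.00512). In contrast, the tetraspanin gene Cd81 (-4.64 ± 0.50, adjusted p = 0.00365) and Cadm1, an adhesion molecule of type 1 cDC (-2.59 ± 0.26, adjusted p = 0.00299), were lower. Integrins and adhesion molecules in all gave 7 higher and 16 lower of 33 tested, with 6 higher and 12 lower without cDC replicate 1 and 6 and 10 without cDC replicate 2.

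Pattern-recognition and inhibitory receptors of the surface divided between the types. Of 28 C-type lectin receptors tested, 15 were lower in pDC and 7 were higher. With all 8 libraries in one fit, 7 of 29 tested were lower and 6 higher. Ly75, which encodes the antigen uptake receptor DEC-205, was at 2.73 and 2.22 CPM in pDC and at 92.8 and 119 CPM in cDC (-5.42 ± 0.27, adjusted p = 0.000806), and Clec4a1 was lower (-7.09 ± 0.89, adjusted p = 0.00554). Of 39 Siglec, immunoglobulin-like and inhibitory receptor genes, 9 were higher and 16 were lower. Lair1, an inhibitory receptor for collagen, was at 1380 CPM in both pDC libraries and at 130 and 103 CPM in cDC (3.57 ± 0.22, adjusted p = 0.00105). Tyrobp, the adaptor DAP12 that carries signals of Siglech, was higher too, at 1781 and 2769 CPM against 382 and 445 CPM (2.46 ± 0.29, adjusted p = 0.00466). Havcr2, which encodes TIM-3, was at 24.6 and 35.1 CPM in pDC and at 234 and 305 CPM in cDC (-3.18 ± 0.27, adjusted p = 0.00208), and Btla was lower (-1.60 ± 0.23, adjusted p = 0.0081).

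The Toll-like receptors differed one by one. Tlr7, which senses single-stranded RNA, was at 301 and 351 CPM in pDC and at 20.5 and 37.8 CPM in cDC (3.48 ± 0.35, adjusted p = 0.00317). Tlr9, the DNA receptor for which pDC are as well known, was at 30.4 and 28.1 CPM in pDC and at 26.2 and 15.9 CPM in cDC, a difference that did not pass the test (0.48 ± 0.29, adjusted p = 0.265). Tlr3, which senses double-stranded RNA, was at 1.31 and 2.44 CPM in pDC and at 187 and 210 CPM in cDC (-6.73 ± 0.35, adjusted p = 0.000865), and Tlr13, a receptor for bacterial ribosomal RNA, was lower (-7.94 ± 0.46, adjusted p = 0.000951). Among receptors of the surface, Tlr2 (-1.43 ± 0.18, adjusted p = 0.00578), Tlr1 (-5.18 ± 0.36, adjusted p = 0.00133) and the lipopolysaccharide receptor Tlr4 (-1.59 ± 0.33, adjusted p = 0.0215) were lower in pDC. The family's other tested members were added after their values were seen. Tlr12 was higher (1.80 ± 0.22), Tlr6 (-1.91 ± 0.25), Tlr8 (-4.70 ± 0.79) and Tlr11 (-7.58 ± 0.52) were lower, and Tlr5 did not pass the test (-0.62 ± 0.36, adjusted p = 0.244). Of these calls, Tlr4 was lost without pDC replicate 1 (adjusted p = 0.0563), cDC replicate 1 (0.152) or cDC replicate 2 (0.0646), and Tlr8 without cDC replicate 1 (0.063).

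**Figure D3:**
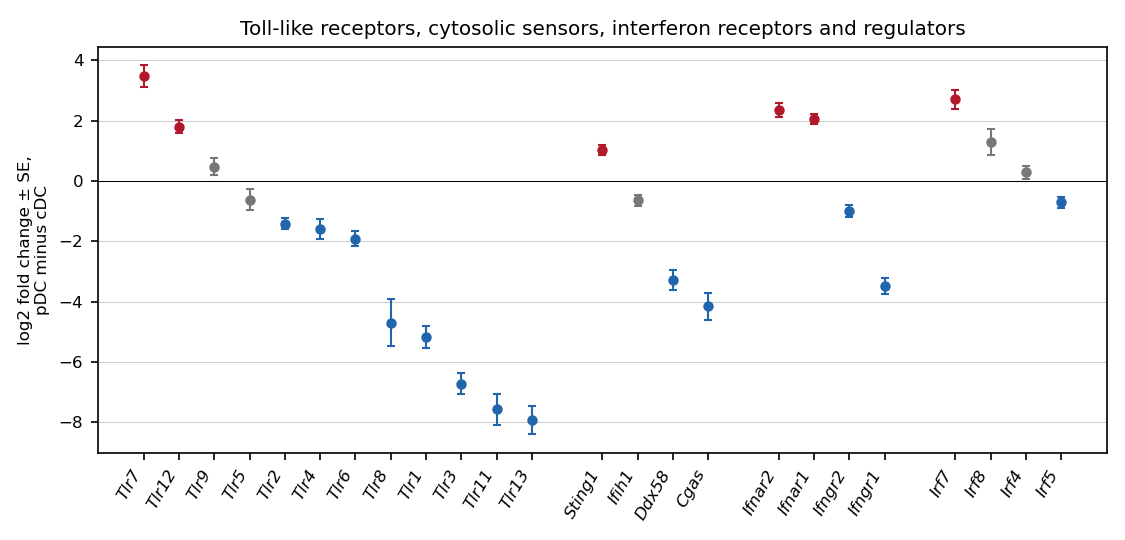
Log2 fold change (pDC minus cDC) ± SE on the y axis for Toll-like receptors, cytosolic sensors, interferon receptors and regulators on the x axis, from the 4 vehicle libraries. Red marks genes called higher in pDC, blue genes called lower and grey genes not called: Tlr7 and Tlr12 lie above 0, Tlr9 near 0, and Tlr1, Tlr3, Tlr8, Tlr11 and Tlr13 below -4.

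The machinery around the endosomal receptors was itself mixed, with 9 of 33 genes higher in pDC and 9 lower. Unc93b1, the chaperone that carries the receptors to endosomes, was at 2199 and 2059 CPM in pDC and at 1063 and 1095 CPM in cDC (0.98 ± 0.18, adjusted p = 0.0157). Pld4, an endosomal exonuclease, was higher (1.69 ± 0.25, adjusted p = 0.00827), and Ctsb, a cathepsin, was at 6666 and 7087 CPM in pDC and at 949 and 938 CPM in cDC (2.87 ± 0.20, adjusted p = 0.00133). Unc93b1 was no longer called without cDC replicate 1 (0.155) or cDC replicate 2 (0.148), nor Pld4 without cDC replicate 2 (0.0695), and the list fell to 6 higher and 4 lower without cDC replicate 1 and to 5 and 6 without cDC replicate 2. Among the co-receptors, Cd180, a TLR-like protein of B cells, was higher in pDC (1.70 ± 0.17, adjusted p = 0.00308), while the scavenger receptor gene Cd36 was lower (-3.77 ± 0.37, adjusted p = 0.00304). Nod1, a cytosolic sensor of peptidoglycan, was lower as well (-3.15 ± 0.23, adjusted p = 0.00137).

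Sensors of the cytosol included 2 that were lower in pDC. Cgas, the DNA sensor that makes cyclic GMP-AMP, was at 0.789 and 1.82 CPM in pDC and at 23.5 and 23 CPM in cDC (-4.16 ± 0.46, adjusted p = 0.00393), and Ddx58, which encodes the RNA sensor RIG-I, was at 4.79 and 2.90 CPM in pDC and at 41.9 and 33.5 CPM in cDC (-3.29 ± 0.33, adjusted p = 0.00322). Ifih1, which encodes the RNA sensor MDA5 and was added after its values were seen, did not pass the test (-0.64 ± 0.19, adjusted p = 0.0524). Sting1, the receptor for cyclic GMP-AMP, lay on the other side, at 232 and 246 CPM in pDC and 124 and 109 CPM in cDC (1.03 ± 0.17, adjusted p = 0.0117). So did Trex1, which degrades cytosolic DNA (1.5 ± 0.28, adjusted p = 0.0157). Both were lost without cDC replicate 1 (0.0766 and 0.0976) or cDC replicate 2 (0.109 and 0.0614). Of 17 members tested, 4 were higher (23.5%, beside 14.3% of all genes) and 2 lower (11.8%, beside 18.4%). Fewer were higher without cDC replicate 1, cDC replicate 2 or pDC replicate 1.

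Genes of the type I interferon response did not move as a group: 16 of 53 tested were higher in pDC, 15 were lower, and the median was 0.19. Isg15 was at 29.2 and 56.3 CPM in pDC and at 30.7 and 35.1 CPM in cDC (0.38 ± 0.34, adjusted p = 0.446), with overlapping groups. The surface gene Ly6e was higher in pDC (1.64 ± 0.21, adjusted p = 0.00611), and Ifitm3, which blocks virus entry, was at 31.8 and 76.2 CPM in pDC and 268 and 233 CPM in cDC (-2.21 ± 0.44, adjusted p = 0.0182). Ly6e lost its call without cDC replicate 1 (0.0698) or cDC replicate 2 (0.061), and Ifitm3 without cDC replicate 1 (0.0642). The counts of the list also fell, in both directions, without either cDC library. The interferon gene Ifnb1 had 2 counts in each pDC library and 0 in the cDC libraries, too few to test.

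Genes of antigen presentation by MHC class II were lower in pDC in part. Ciita, the transactivator of MHC class II genes, was at 272 and 281 CPM in pDC and at 964 and 891 CPM in cDC (-1.75 ± 0.18, adjusted p = 0.00334). H2-Eb1 was at 1590 and 2633 CPM in pDC and at 6543 and 6975 CPM in cDC (-1.68 ± 0.30, adjusted p = 0.014), and H2-Ab1 was lower (-1.28 ± 0.30, adjusted p = 0.0279). H2-Aa (-0.91 ± 0.35, adjusted p = 0.109) and the invariant chain Cd74 (-0.64 ± 0.26, adjusted p = 0.117) did not pass the test, although both were below cDC in each pDC library. The list held 8 lower and 2 higher of 20 tested. Without cDC replicate 1 or cDC replicate 2 it held 4 lower and 1 higher, and there H2-Eb1 (adjusted p = 0.0684 and 0.0772) and H2-Ab1 (0.121 and 0.187) were not called. Without pDC replicate 2 it held 13 lower and 2 higher.

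Of 26 tested genes of MHC class I loading, 7 were higher in pDC (26.9%, beside 14.3% of all genes) and 3 lower (11.5%, beside 18.4%). B2m, the light chain of class I, was at 3878 and 6806 CPM in pDC and at 2804 and 3524 CPM in cDC (0.76 ± 0.33, adjusted p = 0.142). The peptide transporter Tap1 was lower in pDC (-0.94 ± 0.20, adjusted p = 0.0215), and Tapbp, which encodes tapasin, was higher (1.09 ± 0.21, adjusted p = 0.0164). Rab43, which takes part in cross-presentation, was at 24.0 and 28.1 CPM in pDC and at 151 and 196 CPM in cDC (-2.74 ± 0.22, adjusted p = 0.00165). Without cDC replicate 1 or cDC replicate 2 the list held 0 higher and 2 lower (Tap1 at adjusted p = 0.081 and 0.184, Tapbp at 0.152 and 0.0892), and without pDC replicate 2 it held 2 and 2. Reads of near-identical H2 genes may have been shared between them.

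Costimulatory ligands were mostly lower in pDC, with 13 of 23 tested lower and 4 higher. Cd86, a ligand of CD28, was at 13.5 and 13.8 CPM in pDC and at 222 and 323 CPM in cDC (-4.32 ± 0.26, adjusted p = 0.00102). Cd83, which keeps class II and CD86 on the surface, was at 10.8 and 15.1 CPM in pDC and at 1285 and 1432 CPM in cDC (-6.71 ± 0.30, adjusted p = 0.000806). Cd80 (-3.67 ± 0.45, adjusted p = 0.00522), Cd40 (-3.17 ± 0.37, adjusted p = 0.00457) and Icosl, the ligand of ICOS (-2.56 ± 0.18, adjusted p = 0.00136), were lower too. On the pDC side, Slamf9 was at 245 and 302 CPM in pDC and at 14.1 and 4.11 CPM in cDC (4.91 ± 0.64, adjusted p = 0.00595), and Lgals9, a galectin that binds TIM-3, was higher by 1.62 ± 0.25 (adjusted p = 0.00889). Without cDC replicate 2 the count was 2 higher and 8 lower, and with all 8 libraries in one fit 3 higher and 6 lower.

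Cytokine and chemokine genes gave 20 lower and 1 higher of 31 tested, with a median of -2.53. With all 8 libraries in one fit, 11 of 33 tested were lower and 0 higher. Il12b, the shared chain of IL-12 and IL-23, was at 1.16 and 0.455 CPM in pDC and at 157 and 208 CPM in cDC (-7.80 ± 0.46, adjusted p = 0.000951). Ccl5 was at 4.05 and 7.33 CPM in pDC and at 1134 and 666 CPM in cDC (-7.31 ± 0.51, adjusted p = 0.00133), Cxcl16 was lower (-8.12 ± 0.65, adjusted p = 0.00165), and so was Il1b (-8.56 ± 0.49, adjusted p = 0.000902). The 1 higher member, Il12a, was low in both types, at 6.31 and 3.01 CPM in pDC and 0.352 and 0.831 CPM in cDC (2.96 ± 0.67, adjusted p = 0.0261), and its call was lost without pDC replicate 1 (0.0858), cDC replicate 1 (0.121) or cDC replicate 2 (0.0536). Secreted products split. Rnase6, a secreted ribonuclease (2.65 ± 0.29, adjusted p = 0.00402), and the galectin gene Lgals1 (4.29 ± 0.21, adjusted p = 0.000806) were higher in pDC. Cst3, which encodes cystatin C, was at 306 and 482 CPM in pDC and at 2341 and 4044 CPM in cDC (-3.02 ± 0.39, adjusted p = 0.00607), and the lysozyme gene Lyz2 was lower (-5.00 ± 0.43, adjusted p = 0.00207). Gzmb, a granzyme reported in pDC of some species, had 0 and 5 counts in pDC and 5 and 41 counts in cDC and was not tested.

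**Figure D4:**
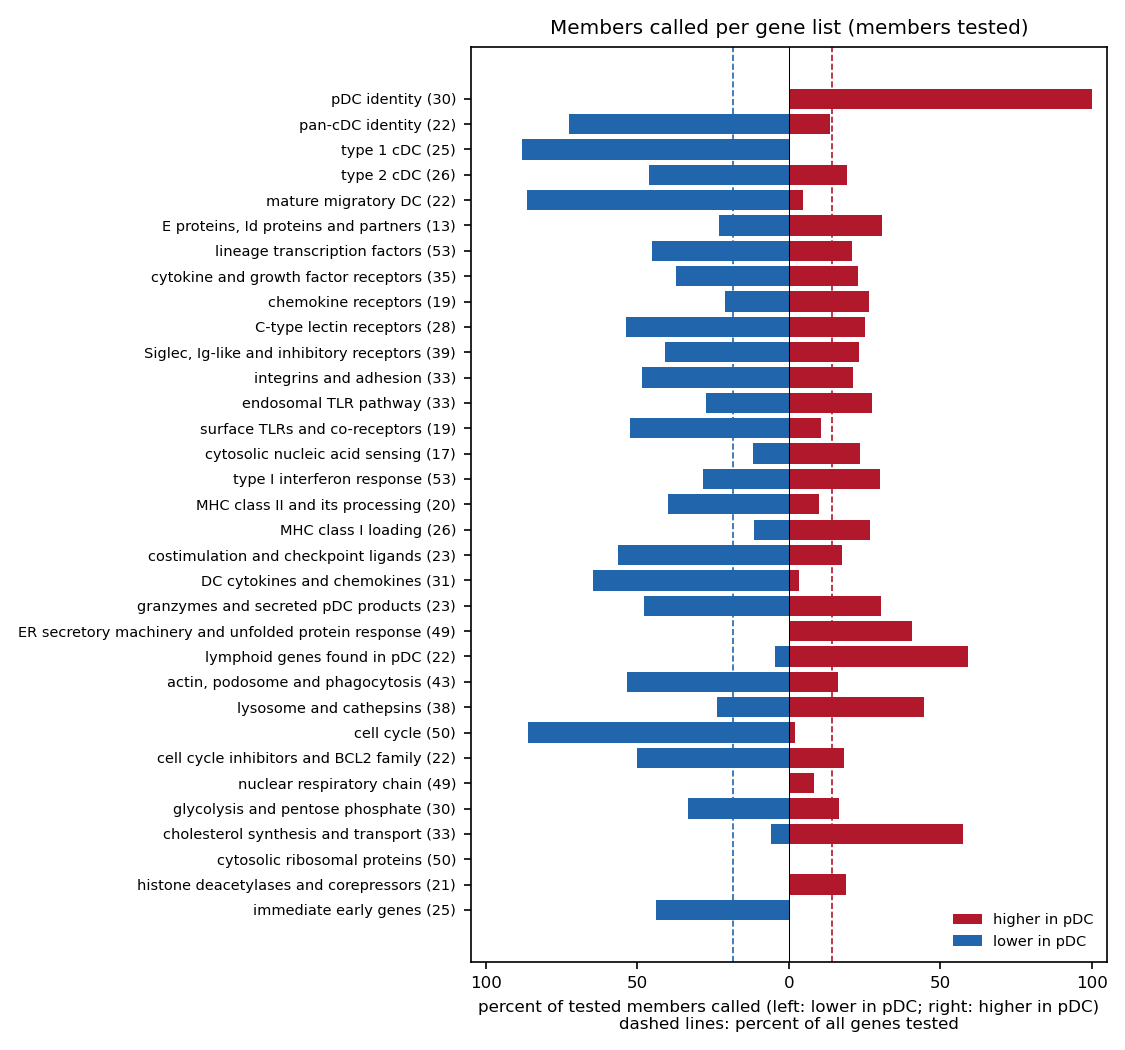
Percent of the tested members of each gene list (number tested in brackets) called higher in pDC (red, to the right) or lower in pDC (blue, to the left), with dashed lines at the 14.3% and 18.4% of all genes tested. The pDC identity list reaches 100% to the right, the lists of type 1 cDC, mature migratory DC and cell cycle lie over 80% to the left, and cytosolic ribosomal proteins have no member called.

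The secretory pathway leaned towards pDC. Of 49 tested genes of the endoplasmic reticulum and its stress response, 20 were higher in pDC and 0 were lower, with a median of 0.63. The signal peptidase subunit Spcs2 was at 582 and 837 CPM in pDC and at 231 and 257 CPM in cDC (1.54 ± 0.25, adjusted p = 0.0103), and Sec61a1, the pore through which new proteins enter, was at 641 and 675 CPM in pDC and at 309 and 320 CPM in cDC (1.06 ± 0.17, adjusted p = 0.0111). Xbp1, the factor that expands the secretory pathway, was at 276 and 905 CPM in pDC and at 241 and 235 CPM in cDC (1.31 ± 0.56, adjusted p = 0.134): only pDC replicate 2 was high. The chaperone gene Hspa5 did not pass the test (0.36 ± 0.23, adjusted p = 0.292). Neither Spcs2 nor Sec61a1 was called without cDC replicate 1 (0.0774 and 0.108) or cDC replicate 2 (0.0614 and 0.102). The list held 3 higher without cDC replicate 1, 4 without cDC replicate 2, 23 without pDC replicate 1 and 10 higher and 2 lower without pDC replicate 2.

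Lymphoid genes known from pDC were higher in 13 of 22 tested and lower in 1, with a median of 2.14. With all 8 libraries in one fit, 10 were higher and 1 lower. Dntt, the polymerase that adds nucleotides during antigen receptor rearrangement, had 4600 and 4980 counts in pDC and 3 and 0 in cDC, a ratio of 3518 at equal depth with a counting interval of 1203 to 17062. Cd7 was at 815 and 775 CPM in pDC and at 189 and 216 CPM in cDC (1.97 ± 0.19, adjusted p = 0.00275). Ighm, the mu heavy chain of immunoglobulin, was at 3071 and 3045 CPM in pDC and at 1001 and 1711 CPM in cDC (1.17 ± 0.30, adjusted p = 0.0383), with the call lost without pDC replicate 1 (0.0703), pDC replicate 2 (0.0771), cDC replicate 1 (0.211) or cDC replicate 2 (0.0541). The B cell receptor gene Cd79b did not pass the test (0.50 ± 0.32, adjusted p = 0.295). Tcf7, a factor of T cells and innate lymphoid cells, was the 1 lower member, at 0.210 and 0.512 CPM in pDC and 17.9 and 16.8 CPM in cDC (-5.57 ± 0.48, adjusted p = 0.00208).

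Markers of other cells bear on these values. The 18 B cell markers summed to 4563 and 4872 CPM in pDC and to 1689 and 3488 CPM in cDC, with none at 0 in a whole group. Of the 18 tested, 3 were higher in pDC (16.7%, beside 14.3% of all genes) and 5 lower (27.8%, beside 18.4%). Fewer were lower without cDC replicate 2 or without either pDC library. The sums include Ighm. Cd22, an inhibitory receptor of B cells, was at 7.89 and 11.7 CPM in pDC and at 109 and 160 CPM in cDC (-3.78 ± 0.32, adjusted p = 0.00206). Cd79a, at 6.10 and 21.1 CPM in pDC and 28.0 and 107 CPM in cDC (-2.32 ± 0.85, adjusted p = 0.0958), and Ms4a1 (-2.61 ± 1.02, adjusted p = 0.113) did not pass the test. All 3 were highest in cDC replicate 2. The plasma cell gene Jchain was at 26.5 and 35.8 CPM in pDC and at 39.0 and 198 CPM in cDC (adjusted p = 0.111), again with cDC replicate 2 highest. The part of B cells in the immunoglobulin and Cd79b values above was not tested.

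NK cell markers summed to 203 and 311 CPM in pDC and to 1373 and 971 CPM in cDC, with 1 of 10 tested higher and 4 lower (8 of 16 tested lower without cDC replicate 1, 2 of 10 without cDC replicate 2) and 1 of 18, Klra4, at 0 in both pDC libraries. The sums include Ccl5. The defining genes were low: Ncr1 had 0 and 2 counts in pDC and 6 and 139 in cDC, and Klrb1c had 0 and 3 in pDC and 6 and 109 in cDC. Most of their counts lay in cDC replicate 2, whereas Ccl5 was higher in cDC replicate 1. Klrd1, which encodes the NK receptor chain CD94, was higher in pDC at 162 and 241 CPM against 56.1 and 57.0 CPM (1.83 ± 0.24, adjusted p = 0.00626). T cell markers summed to 1321 and 2116 CPM in pDC and to 361 and 673 CPM in cDC. These sums include Cd4 and Cd8b1, both higher in pDC. Cd3e was at 0.158 and 1.36 CPM in pDC and at 0.604 and 2.45 CPM in cDC. Of 18 T cell markers tested, 4 were higher (22.2%, beside 14.3% of all genes) and 3 lower (16.7%, beside 18.4%), with none at 0 in a whole group. Fewer of them were lower in each fit that left out 1 library. The part of NK or T cells in the values of Ccl5, Klrd1, Cd4 and Cd8b1 was not tested.

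Myeloid markers were lower in pDC for the most part. Spleen macrophage markers summed to 98.4 and 50.8 CPM in pDC and to 647 and 481 CPM in cDC, with 10 of 16 tested lower, 0 higher and none at 0 in a whole group. Adgre1, which encodes F4/80, was at 4.36 and 1.71 CPM in pDC and at 197 and 148 CPM in cDC (-5.82 ± 0.50, adjusted p = 0.00208), and C1qa, a complement gene of resident macrophages, was at 4.26 and 0.966 CPM in pDC and at 42.5 and 25.7 CPM in cDC (-3.70 ± 0.72, adjusted p = 0.0174; 0.0598 without cDC replicate 1). Without cDC replicate 1 the macrophage list held 1 higher and 5 lower, and with all 8 libraries in one fit 0 higher and 0 lower of 16 tested. Vcam1, another macrophage marker, was lower (-3.73 ± 0.65, adjusted p = 0.0133). Monocyte markers summed to 2839 and 5225 CPM in pDC, where Ly6c2 makes up most, and to 1636 and 1943 CPM in cDC, with 4 of 17 tested higher and 9 lower (6 of 18 tested lower without pDC replicate 1) and none at 0 in a whole group. The part of such cells in the lower values of Csf1r, Lyz2, Cd36 and Vcam1 in pDC was not tested.

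Neutrophil markers summed to 11.6 and 8.53 CPM in pDC and to 32.0 and 35.9 CPM in cDC, with 0 higher and 2 lower of 3 tested and 4 of 13 at 0 in both pDC libraries. Ly6g had 1 and 0 counts in pDC and 0 in both cDC libraries, and S100a8 had 1 and 1 counts in pDC and 7 and 48 in cDC. Mmp9, a neutrophil and DC protease, had 0 counts in pDC and 140 and 343 in cDC, so it was at least 146-fold lower in pDC (floor of 3 counts over the group). Myeloid progenitor and leukemia blast markers summed to 423 and 445 CPM in pDC and to 756 and 663 CPM in cDC. Of 11 tested, 2 were higher (18.2%, beside 14.3% of all genes) and 2 lower (18.2%, beside 18.4%). Fewer were higher without either cDC library, and fewer were lower without cDC replicate 2. Mpo had 0 and 25 counts in pDC and 2 and 9 in cDC. Hoxa9, a homeobox gene of many myeloid leukemias, had 65 and 42 counts in pDC and 1 count in each cDC library, a ratio of 58.9 with a counting interval of 15.9 to 493. Hbb-bs, the adult beta globin gene, was at 254 and 116 CPM in pDC and at 167 and 71.2 CPM in cDC (0.63 ± 0.54, adjusted p = 0.419), higher in replicate 1 of both types.

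Cell cycle genes were lower in pDC almost throughout. Of 50 tested cell cycle genes, 43 were lower in pDC and 1 was higher, with a median of -2.61, and their CPM summed to 3039 and 2428 in pDC and to 8289 and 6999 in cDC. Mcm6, part of the replicative helicase, was at 133 and 94.8 CPM in pDC and at 402 and 363 CPM in cDC (-1.75 ± 0.23, adjusted p = 0.0063). Top2a, the topoisomerase of dividing cells, was at 85.9 and 23 CPM in pDC and at 514 and 396 CPM in cDC (-3.06 ± 0.65, adjusted p = 0.022), and Mki67 was at 37.1 and 11.4 CPM in pDC and at 128 and 180 CPM in cDC (-2.67 ± 0.59, adjusted p = 0.0242). Both were lower in each pDC library than in either cDC library. The call of Top2a was lost without cDC replicate 1 (0.0632) and that of Mki67 without cDC replicate 2 (0.0669). The list counted 27 lower without cDC replicate 1 and 34 without cDC replicate 2, and 18 lower with all 8 libraries fitted together. Ccnd1, the early G1 cyclin, overlapped between the types, at 1099 and 1231 CPM in pDC and 1208 and 1141 CPM in cDC (-0.01 ± 0.19, adjusted p = 0.967).

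Of 22 tested inhibitors of the cycle and regulators of cell death, 4 were higher in pDC (18.2%, beside 14.3% of all genes) and 11 lower (50%, beside 18.4%). Cdkn2d (1.88 ± 0.18, adjusted p = 0.00283) and Cdkn2c (2.64 ± 0.30, adjusted p = 0.0044), which encode CDK4 and CDK6 inhibitors, were higher in pDC, the latter at 44.4 and 68.2 CPM against 10.2 and 7.87 CPM. The survival genes Bcl2a1a, Bcl2a1b and Bcl2a1d were lower (-6.74, -6.42 and -6.57), but these are near-identical copies whose reads cannot be told apart with confidence. Pmaip1, a BH3-only killer gene, was at 83.2 and 86.6 CPM in pDC and at 570 and 805 CPM in cDC (-3.02 ± 0.25, adjusted p = 0.0018). Bcl2 itself was low and did not pass the test (-0.99 ± 0.39, adjusted p = 0.114). Without cDC replicate 1 or cDC replicate 2 the list held 2 higher and 9 or 8 lower.

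Cholesterol synthesis and transport genes were higher in pDC for 19 of 33 tested and lower for 2, with a median of 1.0. Fdps, which makes farnesyl diphosphate, was at 320 and 341 CPM in pDC and at 86.9 and 107 CPM in cDC (1.77 ± 0.19, adjusted p = 0.00373), and Sqle, the squalene epoxidase, was at 222 and 180 CPM in pDC and at 56.5 and 66.8 CPM in cDC (1.71 ± 0.20, adjusted p = 0.00465). Nr1h3, the sterol sensor LXR alpha that turns on efflux, was lower in pDC at 2.37 and 0.909 CPM against 29.0 and 13.3 CPM (-3.68 ± 0.64, adjusted p = 0.013). The efflux pump gene Abca1 was low in all libraries (-0.29 ± 0.46, adjusted p = 0.669). Without cDC replicate 1 the list held 8 higher and 2 lower, without cDC replicate 2 it held 11 and 1, and with all 8 libraries 11 and 0.

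In glycolysis and the pentose phosphate route, 10 of 30 tested were lower in pDC and 5 higher. Ldhb, a lactate dehydrogenase subunit, was at 98.0 and 95.7 CPM in pDC and at 3.92 and 2.69 CPM in cDC (4.87 ± 0.27, adjusted p = 0.000889), while Ldha, the other main subunit, was at 486 and 507 CPM in pDC and at 714 and 682 CPM in cDC (-0.49 ± 0.17, adjusted p = 0.0881). Pfkfb3, which makes the activator of phosphofructokinase, was at 20.7 and 20.8 CPM in pDC and at 713 and 562 CPM in cDC (-4.94 ± 0.23, adjusted p = 0.000806). Hk3, a hexokinase, was lower (-6.06 ± 0.63, adjusted p = 0.00332). The list held 3 higher and 5 lower without cDC replicate 1, and 2 and 6 without cDC replicate 2. Of 49 respiratory chain genes encoded in the nucleus, 4 were higher (8.16%, below the 14.3% of all genes) and 0 were lower (beside 18.4%). Without pDC replicate 1 it was 11 higher, and without any 1 of the other 3 libraries it was 1 higher (and 1 lower without pDC replicate 2).

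Lysosomal genes leaned towards pDC, with 17 of 38 tested higher and 9 lower (10 and 6 without cDC replicate 1, 7 and 5 without cDC replicate 2). Grn, which encodes progranulin, was at 4141 and 3735 CPM in pDC and at 590 and 440 CPM in cDC (2.93 ± 0.25, adjusted p = 0.00191). Genes of actin, podosomes and phagocytosis leaned the other way, with 23 of 43 lower and 7 higher (12 and 5 without cDC replicate 1, 14 and 3 without cDC replicate 2). S100a4, a calcium-binding protein of migrating cells, was at 2.52 and 6.20 CPM in pDC and at 116 and 79.8 CPM in cDC (-4.49 ± 0.50, adjusted p = 0.00412). Rac2, a GTPase of blood cells, and Cybb, the core of the phagocyte NADPH oxidase, were higher in pDC by 2.01 ± 0.21 (adjusted p = 0.00329) and 2.63 ± 0.20 (adjusted p = 0.00151).

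Of 25 immediate early and stress genes, 11 were lower in pDC (44%, beside 18.4% of all genes) and 0 were higher. With all 8 libraries in one fit, 4 of 26 tested were lower and 0 higher. Egr1 was at 33.4 and 56.6 CPM in pDC and at 281 and 487 CPM in cDC (-3.09 ± 0.41, adjusted p = 0.00612), but Fos was at 537 and 1591 CPM in pDC and at 800 and 1942 CPM in cDC (-0.37 ± 0.64, adjusted p = 0.701), higher in replicate 2 of both types. Panobinostat inhibits histone deacetylases. Of 21 tested genes of these enzymes and their corepressors, 4 were higher in pDC (19%, beside 14.3% of all genes) and 0 lower. Hdac1 was at 250 and 276 CPM in pDC and at 249 and 244 CPM in cDC (0.09 ± 0.17, adjusted p = 0.715), and Hdac5 was at 154 and 138 CPM in pDC and at 56.8 and 47.8 CPM in cDC (1.48 ± 0.18, adjusted p = 0.00516). Without cDC replicate 1 or cDC replicate 2, 2 members of the list were higher. Among 50 cytosolic ribosomal protein genes, edgeR called 0, with a median of 0.04.

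Differences towards cDC were ranked with the same cutoff on the average level, which a gene near 0 in pDC can miss. Apart from the list members named so far, the largest in this ranking were in a mixed set of functions. Marcksl1, an actin-binding substrate of protein kinase C, was at 0.158 and 3.47 CPM in pDC and at 414 and 740 CPM in cDC (-8.33 ± 1.21, adjusted p = 0.008). Asb2, part of a ubiquitin ligase, was at 2.21 and 5.12 CPM in pDC and at 783 and 654 CPM in cDC (-7.62 ± 0.51, adjusted p = 0.00124), and Anpep, which encodes the aminopeptidase CD13, was at 2.05 and 1.65 CPM in pDC and at 403 and 263 CPM in cDC (-7.48 ± 0.36, adjusted p = 0.000806). Cacnb3, a calcium channel subunit gene (-7.31 ± 0.24), the metalloprotease gene Adam8 (-7.25 ± 0.39), Apol7c (-7.23 ± 1.09), the transglutaminase gene Tgm2 (-7.12 ± 0.38) and Gm8221 (-7.01 ± 1.43) completed the set, all called with no overlap of the groups.

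The same contrast was made in the 4 panobinostat libraries, which share no sample with the vehicle libraries. There, 161 of 13267 genes tested were called (1.21%), 103 higher in pDC (0.776%) and 58 lower (0.437%). The biological coefficient of variation was 0.819 against 0.288 under vehicle. Genes with at least 1 count were fewest in panobinostat pDC replicate 2 (10745, beside 14927 in panobinostat pDC replicate 1). More genes were called in each fit that left out 1 of the 4 panobinostat libraries. The source of the larger spread was not tested. Of the genes higher in pDC under vehicle, 1621 of 1817 tested in both (89.2%) had the same sign, and of those lower 2302 of 2391 did (96.3%). None was called in the opposite direction, 101 were called higher in both and 55 lower in both. Siglech was at 5146 and 6047 CPM in panobinostat pDC and at 1.77 and 1.75 CPM in panobinostat cDC (11.63 ± 0.49, adjusted p = 0.0428), and Tcf4 at 1516 and 970 CPM against 44.2 and 46.5 CPM (4.78 ± 0.36, adjusted p = 0.046). Zbtb46 was at 4.13 and 18.1 CPM against 193 and 176 CPM (-4.06 ± 0.85, adjusted p = 0.126), and Tlr7 at 275 and 427 CPM against 19.2 and 27.3 CPM (3.92 ± 0.38, adjusted p = 0.0489). Clec9a overlapped between the types there as well, at 174 and 286 CPM in pDC and 167 and 268 CPM in cDC (0.08 ± 0.39, adjusted p = 0.934). Hdac5 was at 44.4 and 35.3 CPM in panobinostat pDC and at 51.2 and 33.8 CPM in panobinostat cDC (-0.09 ± 0.39, adjusted p = 0.927). Whether any gene's lineage difference changed with the drug was not tested here.

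**Figure D5:**
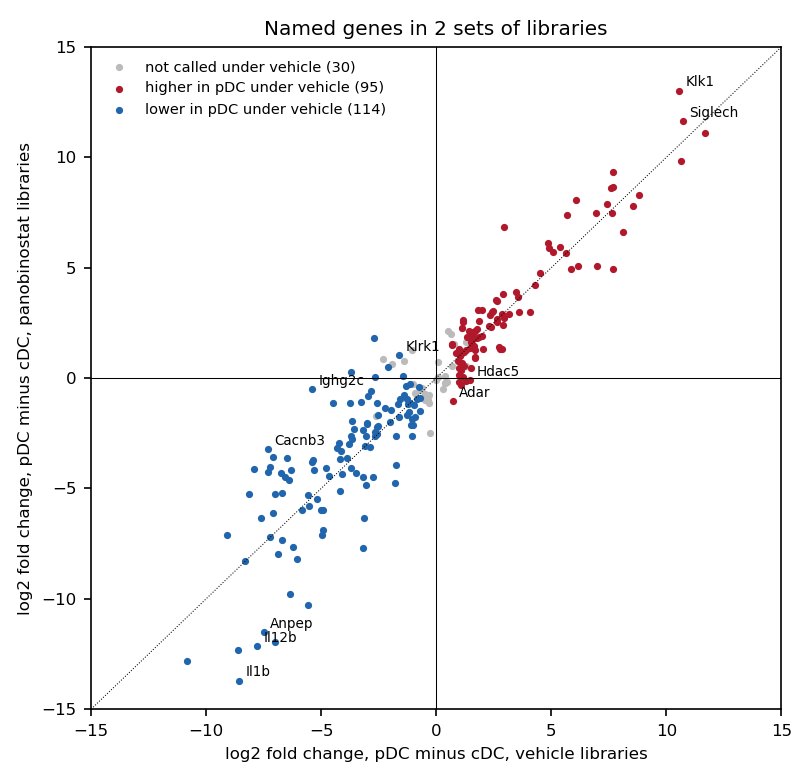
Log2 fold change (pDC minus cDC) of the 239 named genes tested in both sets, in the 4 vehicle libraries on the x axis and in the 4 panobinostat libraries on the y axis, with the dotted line marking equal values. Red and blue points are genes called higher (95) or lower (114) in pDC under vehicle, grey points those not called (30); of the 209 called genes, all but 11 lie on the same side of 0 in both, with Adar, Klrk1 and Hdac5 among the 11.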

How the data were processed

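RNA was sequenced from pools of sorted splenic DC. Per the labels' protocols, extraction used Trizol with a Direct-zol kit, and libraries came from a NEBNext Single Cell/Low Input kit. The labels' extraction text speaks of leukemia cells, while titles and cell type labels name DC, and the libraries were taken as DC. Per the submitters' processing notes, the tools were cutadapt (2.1), HISAT2 (2.1.0) on mm10 and featureCounts from Subread (2.0.0). The authors deposited these values as raw read counts, 1 row per Entrez gene and 1 column per library. The sources used here state neither the annotation, nor the strand setting, nor the treatment of multiply aligned reads, so near-identical, overlapping and antisense genes are uncertain.

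Of 27179 gene IDs, 25275 (92.99%) matched a symbol. The 15 mitochondrial IDs held 0 counts. Reads carry no recorded molecular identifiers, so floors (3 counts over a group) and intervals cover counting error only. The 4 vehicle libraries were fitted alone in edgeR (4.0.16, R 4.3.3) with cell type as the only term, filterByExpr (minimum count 10, minimum total 15), TMM scaling and the quasi-likelihood F test, at adjusted p = 0.05 (2 residual and 3.15 prior degrees of freedom). SEs were derived from the F statistic, and a prior count of 2 was used for log2 CPM. In data simulated for this contrast, 49 or 50 of 13388 genes were changed at each size of change. Of these, 8% changed 2-fold, 57.1% changed 4-fold and 82% changed 8-fold were called, with 6 of 13190 unchanged genes called. Far more genes were called in the real contrast (4491), and the Benjamini-Hochberg cutoff depends on that share. The simulated rates therefore do not carry over to the real contrast. Alternatives changed the scaling, the filter, the tool (DESeq2 1.42.0, limma-voom 3.58.1), the block or the libraries.

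The members and the 42 gene lists (1212 of 1219 entries matched) were chosen with earlier results of these data known. Genes were named by rule: the 12 largest called differences per direction without overlap of the groups and with mean log2 CPM no lower than 4, the key genes of each list, and its 3 called members per direction with the highest mean CPM. Of 240 named genes, 170 had a promoter in the RefSeq table.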

Additional observations from a re-analysis of the deposited data

Results flagged for a closer look

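For 3 named genes, both pDC libraries lay on one side of both cDC libraries under vehicle and on the other side under panobinostat. Adar, which encodes an RNA-editing enzyme, had a log2 fold change (pDC minus cDC) of 0.72 under vehicle, with 139 and 129 CPM in pDC and 80.5 and 82.6 CPM in cDC, and of -1.06 under panobinostat, with 75.3 and 19.7 CPM in pDC and 97.0 and 101 CPM in cDC. The chaperone gene Hspa5 had 0.36 under vehicle, with 1830 and 2356 CPM in pDC and 1449 and 1806 CPM in cDC, and -0.24 under panobinostat, with 2245 and 2053 CPM in pDC and 2252 and 2811 CPM in cDC. Klrk1, which encodes the activating receptor NKG2D, had -1.61 under vehicle, with 23.9 and 45.0 CPM in pDC and 98.7 and 111 CPM in cDC, and 1.05 under panobinostat, with 168 and 450 CPM in pDC and 133 and 164 CPM in cDC. The difference between the 2 contrasts was not tested for any of them. With the 4 panobinostat libraries, none passed edgeR's test (adjusted p = 0.476 for Adar, 0.726 for Hspa5 and 0.366 for Klrk1).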

How the results depend on the processing

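Under vehicle, 4491 genes were called. RLE scaling, library size only, no filter, a stricter filter (at least 50 counts in 2 libraries), DESeq2 and limma-voom gave 3976 to 5647. Fitting all 8 libraries together gave 1385. Leaving out 1 library gave 1978 to 3887. Under panobinostat, 161 genes were called: 82 with RLE scaling, 221 with library size only, 327 without a filter, 253 with the stricter filter, 2057 with DESeq2, 712 with limma-voom, 2557 with all 8 libraries and 377 to 10326 with 1 library left out. The cause of these differences was not tested.

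The replicate numbers are shared by the groups, but the labels tie them to no animal or batch, and the contrast has only 2 pairs. Deviations from the group means correlated at 0.455 between same-numbered libraries. With a replicate block, 5954 genes were called under vehicle and 589 under panobinostat.

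All 209 called named genes kept their direction in every alternative. Fitting all 8 libraries ended 63 of these calls, leaving out cDC replicate 1 or cDC replicate 2 ended 61 or 62, and leaving out pDC replicate 1 or pDC replicate 2 ended 19 or 20. In a minority of the alternatives, genes that did not pass the main test were called, among them Irf8, H2-Aa, Cd74, Xbp1 and Ifih1. Their lack of a call is therefore no evidence of equal levels. Some small values changed sign. With 1 library left out, the medians of lists ranged from -0.63 to 0.65 for blast markers, -0.93 to 0.33 for E and Id proteins, -0.14 to 0.24 for cytosolic sensing, -0.12 to 1.19 for erythroid markers, -0.031 to 0.28 for the interferon response, -0.33 to 0.33 for ribosomal proteins and -1.58 to 0.69 for T cell markers. The blast median was 0.35 without a filter, 0.045 with the stricter filter and 0.17 with all 8 libraries, and that of E and Id proteins was 0.45 with the stricter filter. Among genes not called, the ranges were -0.645 to 0.011 for Abca1, -0.090 to 0.090 for Ccnd1 (0.018 with all 8 libraries), -2.19 to 0.957 for Cd3d, -3.21 to 0.348 for Cd3e, -1.34 to 0.435 for Fos, -0.022 to 1.38 for Hbb-bs, -0.161 to 0.800 for Isg15, -2.07 to 0.285 for Itgb7 and -0.316 to 0.387 for Rpl23. With 1 library left out, the lone sample of its group is assumed to vary like the others.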

Other observations

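Immunoglobulin gene segments, which were picked out after their values were seen, divided by kind. Of 11 J segments tested, 6 were higher in pDC and 0 lower, while of 126 V segments 53 were lower and 6 higher. Among all genes, 14.3% were higher and 18.4% lower. With all 8 libraries in one fit, edgeR no longer called Ighj2, Ighj3, Ighj4 and Igkj1 (adjusted p = 0.0655, 0.0665, 0.054 and 0.175). Ighj1, a joining segment upstream of the mu constant region, had 1411 and 1111 counts in pDC and 52 and 7 in cDC (log2 fold change 5.54 ± 0.82, adjusted p = 0.0083 by edgeR). The light chain constant gene Iglc3 had 8631 and 13678 counts in pDC and 195 and 922 in cDC (4.49 ± 0.82, adjusted p = 0.0147; 0.0542 with all 8 libraries in one fit). Ighg3, a heavy chain of switched antibodies, had 17 and 15 counts in pDC and 362 and 416 in cDC (-4.45 ± 0.31, adjusted p = 0.00133). Ighg2b (-5.34 ± 0.71, adjusted p = 0.00628; 0.0685 with all 8 libraries in one fit) and Ighg2c (-5.40 ± 0.56) were lower in pDC as well. These segments are short and alike, reads may have been shared among them, and they share B and plasma cells as a further source whose part was not tested.

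Genes that share a symbol stem were also viewed after the fact, and the stems given here were picked for their counts. Of 31 Kif genes (kinesin motors) tested, 15 were lower in pDC and 1 higher, beside 18.4% lower among all genes. Of 20 Smim genes (small integral membrane proteins), 9 were higher and 0 lower, beside 14.3% higher among all genes. Of 17 Tnfrsf genes (tumor necrosis factor receptors), 7 were lower (41.2%, beside 18.4%) and 1 was higher (5.88%, beside 14.3%). Other stems were balanced: of 28 Ap genes, 4 were higher and 4 lower, and of 27 Ankrd genes, 4 were higher and 3 lower.

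The heat shock gene Hspa1a was at 265 and 0.739 CPM in pDC and at 1965 and 39.5 CPM in cDC, and Hspa1b at 170 and 0.625 CPM in pDC and at 1308 and 24.7 CPM in cDC, so that replicate 1 exceeded replicate 2 in both types.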
